A study of Mus musculus with 4 samples.

Results

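Solute carriers are membrane proteins that move sugars, amino acids, ions, nucleosides, metals, vitamins and other small molecules across the plasma membrane or between compartments of a cell. They were followed here in mouse fetal liver erythroid progenitors with and without Rcor1, leaving aside the mitochondrial Slc25 family, the red cell anion exchanger Slc4a1 and the iron carrier Slc11a2. Members were the gene rows whose symbol is Slc, a number, the letter a and a number, with at least 40 counts summed over the 4 libraries. Of 35927 gene rows with counts, 290 had such a name, and 155 of these reached the count minimum. The other 135 names did not reach it, and 44 of them had no count in any library. The letter a in the rule admits the Slc35a nucleotide sugar carriers but not the other letters of that family.

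Gene expression was measured by mRNA sequencing of CD71+, TER119- cells sorted from E13.5 fetal livers on a C57BL/6 background, with CD71 marking iron-hungry immature red cells and TER119 marking later ones. The control group (2 libraries) joined Rcor1+/+ and Rcor1+/- embryos, so it includes carriers of 1 mutant allele, and the mutant group (2 libraries) was Rcor1-/-. Rcor1 encodes a scaffold of a histone demethylase and deacetylase complex that represses transcription. Each library was made from RNA pooled over samples, so p-values measure only the spread between pools. Rcor1 itself was at 159.7 and 175 CPM in controls and 77.9 and 78.9 CPM in mutants (-1.09), so transcript remained in both mutant libraries, and no label says which part of the gene is deleted. Library totals ran from 15053229 to 26892375 counts. All 8 erythroid markers examined were present and all 8 were lower in the mutant, with a summed level of 5074 and 5235 CPM in controls and 3679 and 3613 CPM in mutants. Of all tested genes 29.2% were called lower. The share was 44.8% among genes with a mean of 20 CPM or more, a level that all 8 markers exceeded.

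A developing red cell divides quickly and then fills with haemoglobin. It takes up glucose and glutamine for growth, glycine and iron for haem, and folate and nucleosides for DNA synthesis, and it releases lactate. The mature red cell depends on glucose, and it keeps dense glucose, nucleoside, monocarboxylate and urea carriers in its membrane. Amino acid exchangers of the Slc7 family work as pairs of a light chain, which makes the pore, and the heavy chain Slc3a2, which brings it to the surface. The lactate carriers need an accompanying membrane protein, basigin (Bsg) or embigin (Emb).

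Levels below are CPM (counts per 1000000 library counts, with TMM scaling factors) in control replicates 1 and 2 and mutant replicates 1 and 2, and changes are log2 fold changes of mutant over control with their standard error and Benjamini-Hochberg adjusted p from edgeR's quasi-likelihood test fitted over all genes. A change was called at adjusted p 0.05. Of the 155 members 154 could be tested. The call was higher in the mutant for 48 members and lower for 41, and 65 did not pass; over all 13140 tested genes the called share was 57.5%, with 28.3% higher and 29.2% lower. For the members these shares were 57.8%, 31.2% and 26.6%, close to those of all genes. The median change of the members was 0.10, against 0.01 over all tested genes. Changes of 2-fold or more were called higher in 21 members and lower in 4, which were Slc26a1, Slc2a4, Slc5a2 and Slc7a4; over all genes 11.7% rose and 1.80% fell by that much. Leaving out members and genes with fewer than 20 counts over both libraries of either group, 14 of 145 members rose by that much (9.66%, against 8.46% of 12247 genes) and 3 fell (2.07%, against 1.46%). The groups did not overlap in 125 of the 154 members, and in 77.9% of all tested genes. Without TMM factors, on library totals alone, 63 members were called higher and 29 lower, and the median of all genes moved to 0.15. DESeq2 called 29 members higher, among them 4 sugar, 7 amino acid and 5 ion carriers. Over all genes it called 2502 higher, against 3723 with edgeR. The authors' deposited table calls 61 members higher and 28 lower at an FDR of 0.05, and no member is called in opposite directions there and here.

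The members were grouped by what they carry. The classes with most members were amino acid carriers (35), metal carriers (26), carriers of other organic substances such as urea, urate and organic cations (24), ion carriers (23) and sugar carriers (13), followed by carriers of vitamins and choline (11), carboxylates (9), nucleosides (5) and nucleotide sugars (5). A further 4 names belong to proteins that are not carriers, and 1 row of the metal class, Slc39a1-ps, is a pseudogene. Slc38a9 has 2 rows. The called share of tested rows was 65.7% for amino acid, 69.6% for ion and 60% for nucleoside carriers, against 57.5% of all genes. It was 54.5% for vitamin and choline, 44.4% for carboxylate, 43.5% for other organic and 40% for nucleotide sugar carriers. Summed over 151 carrier rows, the level was 9379 and 9414 CPM in controls and 8297 and 8196 CPM in mutants. The sugar class alone had a higher sum in both mutant libraries, at 530 and 533 CPM in controls and 684 and 662 CPM in mutants. Nucleoside carriers had the largest relative drop in sum, from 1081 and 1079.9 CPM to 769.8 and 734 CPM, and amino acid carriers went from 3183 and 3221 CPM to 2683 and 2710.2 CPM. As CPM of plain library totals, without TMM factors, the sum of all carriers was 8919 and 8998 in controls and 8718 and 8558 in mutants, so there too it was lower in both mutant libraries. On that scale the sum of the metal class had the opposite order, with 1692 and 1735 in controls and 1796 and 1777 in mutants. In bulk samples such as these, fewer cells that express a gene and less RNA of it per cell cannot be told apart.

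**Figure D1:**
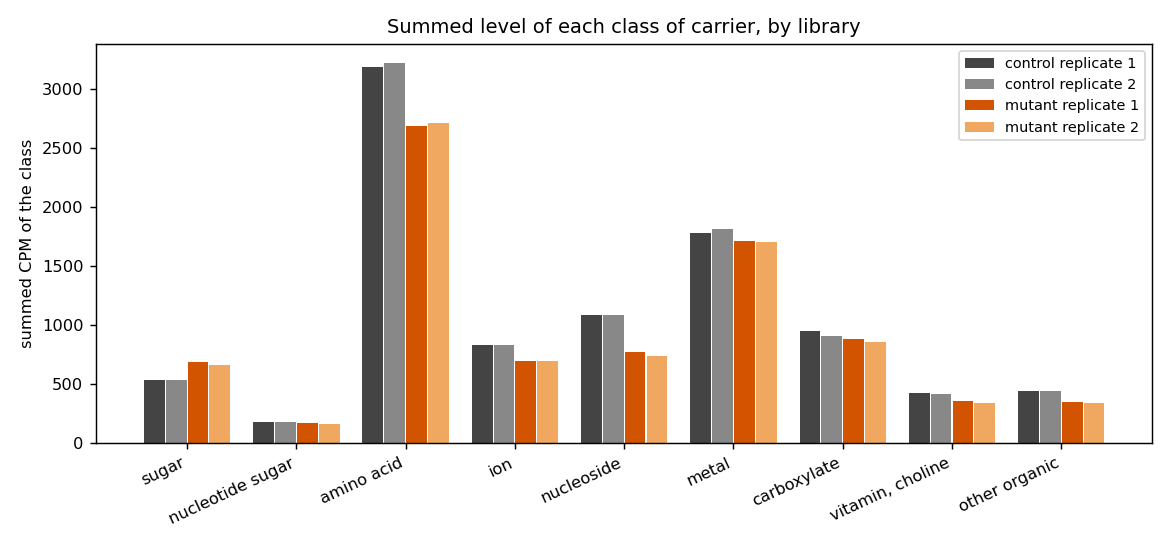
Summed level (CPM, linear axis from 0) of each class of carrier in each of the 4 libraries, with controls in greys and mutants in oranges. The sugar class is higher in both mutant libraries, and the amino acid, ion and nucleoside classes are lower in both.

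Of 13 sugar carriers, 7 were higher in the mutant, 4 were lower and 2 did not pass, with a median of 0.40 against 0.01 for all genes. The called share was 84.6%, against 57.5% of all genes. The steepest rise of any member was that of Slc45a3 (ENSMUSG00000026435), a member of a family of putative sugar transporters that is best known as a prostate marker. It was at 2.58 and 2.61 CPM in the control libraries and at 71.6 and 64.1 CPM in the mutant libraries. Both mutants were far above both controls, a 26.1-fold rise (log2 fold change 4.71 ± 0.11, adjusted p = 1.74e-15). Slc50a1, the animal member of the SWEET sugar exporters, went from 9.58 and 7.43 CPM to 18 and 16.2 CPM (1.01 ± 0.12, adjusted p = 2.78e-06).

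The 2 facilitative glucose carriers with most counts both rose, by little. Slc2a1 (GLUT1, the glucose carrier of human red cells) was at 195 and 197 CPM in controls and at 247 and 239 CPM in mutants (0.31 ± 0.05, adjusted p = 1.74e-05). Slc2a3 (GLUT3, a high-affinity glucose carrier) was at 134 and 137 CPM in controls and 181 and 179 CPM in mutants (0.41 ± 0.05, adjusted p = 1.42e-06). Per kilobase of exon, Slc2a3 stood at 0.33 and 0.34 of the level of Slc2a1 in the controls and at 0.35 and 0.36 in the mutants, so the order of the 2 genes did not change. The sugar phosphate carriers Slc37a1 (0.40), Slc37a2 (1.56) and Slc37a3 (0.40) rose, while Slc37a4, which brings glucose 6-phosphate into the endoplasmic reticulum, had 0.11 ± 0.07 and did not pass. The 3 rises were not called by DESeq2 (adjusted p = 0.201, 0.178 and 0.136). Slc37a2, with few control counts, no longer passed once control replicate 1 was left out (0.139). Leaving out mutant replicate 1 ended the calls of Slc37a1 and Slc37a3 (0.0788 and 0.0510), as did leaving out control replicate 2 for Slc37a1 (0.0790) and control replicate 1 for Slc37a3 (0.130).

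The 4 sugar carriers that fell were Slc2a4 (GLUT4, the insulin-responsive glucose carrier), Slc5a2 (the sodium-glucose carrier of kidney tubules), Slc2a8 (GLUT8, an intracellular hexose carrier) and Slc45a4. Slc2a4 was at 8.8 and 6.7 CPM in controls and 2.57 and 3.56 CPM in mutants (-1.39 ± 0.19, adjusted p = 1.01e-05). Slc2a8 was at 35.4 and 34.3 CPM in controls and 22 and 16.9 CPM in mutants (-0.83 ± 0.10, adjusted p = 8.53e-06). For both genes the 2 control libraries stood above the 2 mutant libraries. Slc5a2 fell by 1.13 from a level of 3.65 ± 0.0225 CPM (SD, n = 2). Of its exon bases, 20.6% are shared in GENCODE M21 with BC017158 on the opposite strand, which had over 10 times its counts (1371 and 1036 in controls) and did not pass (-0.06); whether strand was used in counting is not given, so the 2 cannot be fully told apart. Slc45a4 fell by 0.27, and had adjusted p = 0.0902 with library totals alone.

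**Figure D2:**
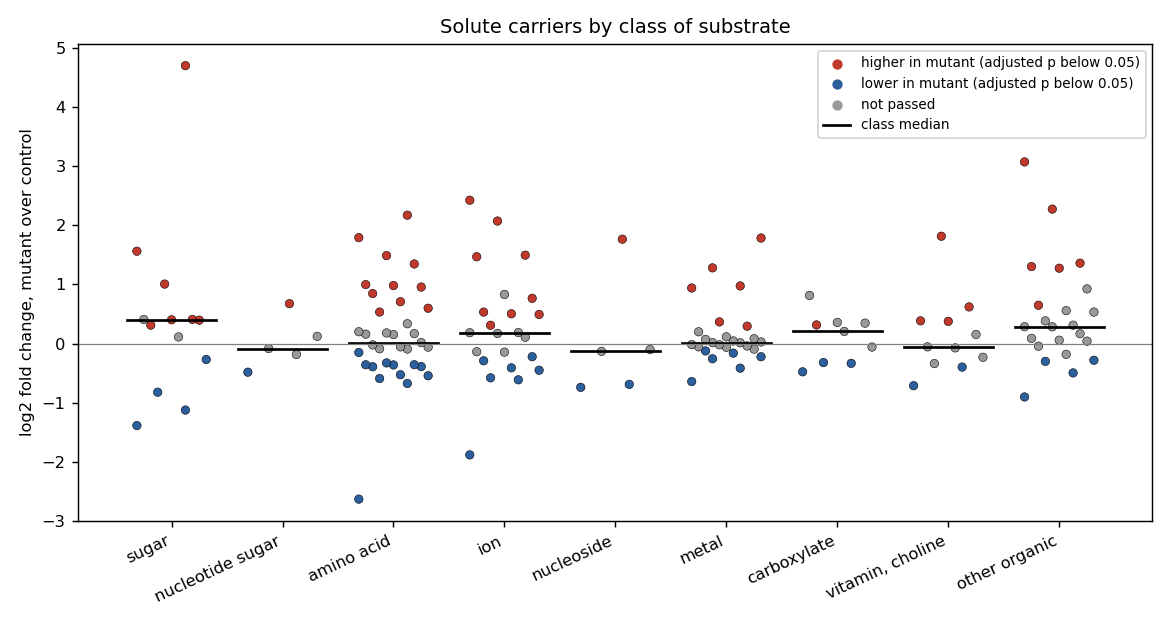
Log2 fold change of mutant over control of each of 150 tested carrier rows, by class of substrate, with called rises in red, called falls in blue and the others in grey; the black line is the class median. The point at 4.71 in the sugar class is Slc45a3, and the lowest points are Slc7a4 at -2.64 and Slc26a1 at -1.89.

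To show the sequence at the start of genes that changed most or that hold most counts, the 250 bases before the most upstream RefSeq start (GRCm38.p6) are printed for 2 carriers that rose, Slc45a3 and Slc22a15, and 2 that fell, Slc29a1 and Slc16a1. Capitals mark matches, on either strand, to the GATA hexamers AGATAA and TGATAA or to AATCAC, which holds the AATC core bound by Gfi1b, a repressor that recruits the Rcor1 complex. None of the 4 windows overlaps an annotated exon of its own gene in GENCODE M21. Counts per gene do not show which start was used.
Slc45a3, chr1:131962665-131962914, plus strand: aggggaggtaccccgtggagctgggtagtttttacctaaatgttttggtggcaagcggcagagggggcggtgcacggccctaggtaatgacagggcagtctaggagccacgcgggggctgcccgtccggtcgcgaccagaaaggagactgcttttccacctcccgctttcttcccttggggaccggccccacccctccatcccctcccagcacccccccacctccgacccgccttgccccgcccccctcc
Slc22a15, chr3:101924454-101924703, minus strand: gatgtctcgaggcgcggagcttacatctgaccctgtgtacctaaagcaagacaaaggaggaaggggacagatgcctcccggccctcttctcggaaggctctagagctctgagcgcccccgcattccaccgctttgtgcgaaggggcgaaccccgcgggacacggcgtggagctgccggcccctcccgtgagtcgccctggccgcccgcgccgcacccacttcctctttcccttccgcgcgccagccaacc
Slc29a1, chr17:45599619-45599868, minus strand: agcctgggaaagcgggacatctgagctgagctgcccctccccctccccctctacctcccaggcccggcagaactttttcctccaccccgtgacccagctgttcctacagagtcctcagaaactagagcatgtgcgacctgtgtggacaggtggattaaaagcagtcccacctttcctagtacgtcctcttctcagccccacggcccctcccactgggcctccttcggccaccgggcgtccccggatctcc
Slc16a1, chr3:104638414-104638663, plus strand: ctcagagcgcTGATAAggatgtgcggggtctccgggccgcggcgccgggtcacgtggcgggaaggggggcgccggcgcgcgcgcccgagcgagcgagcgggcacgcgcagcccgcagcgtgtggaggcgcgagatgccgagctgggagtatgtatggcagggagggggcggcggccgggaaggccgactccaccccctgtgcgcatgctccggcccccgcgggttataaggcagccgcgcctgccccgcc
Among these 4 windows only that of Slc16a1 has a GATA or AATCAC match, to TGATAA; that of Slc29a1 holds 1 E box, CAGCTG, which is not in capitals. A promoter was found for 114 of the 155 members, and 109 carrier promoters were searched once each. Unlike the 4 printed windows, some of these lie partly or wholly in exons of their own gene. Among carriers that fell, the window of Slc6a9 has all 250 bases in its own exons. That of Slc26a1, which holds 1 GATA match, has 204. A GATA hexamer was in 4 of 34 promoters of carriers that rose, in 4 of 28 of those that fell, and in 16.9% of all 27025 promoters. AATCAC was in 0 of 34, in 3 of 28, and in 9.23% of all promoters. The Klf-type sequence CCACACCC was in 0 of 34, in 1 of 28, and in 3.22% of all promoters. The E box CAGCTG was in 5 of 34, in 3 of 28, and in 12.7%. The 34 include Slc26a10, Slc9a5, Slc11a1, Slc22a15, Slc6a4 and Slc37a2, each with fewer than 20 counts over both controls. Of these, Slc26a10 gave 1 of the GATA matches and Slc6a4 gave 1 of the E boxes. No motif contains another. A missing match says only that these letters are not in this window.

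Of 35 amino acid carriers, 11 were higher, 12 were lower and 12 did not pass, with a median of 0.02. The falls included most of the carriers with many counts. Slc7a5 (LAT1, ENSMUSG00000040010), the exchanger that brings in leucine and other large neutral amino acids, was at 546 and 567 CPM in controls and 429 and 419 CPM in mutants (-0.39 ± 0.04, adjusted p = 6.25e-07). Slc43a1 (LAT3), a second route for leucine that is prominent in red cell development, was at 258 and 258 CPM in controls and 186 and 171 CPM in mutants (-0.53 ± 0.05, adjusted p = 8.4e-08). Slc38a5 (a glutamine and histidine carrier) was at 158 and 164 CPM in controls and 106 and 107 CPM in mutants (-0.59 ± 0.05, adjusted p = 2.58e-08). In each of these 3 genes both mutant libraries lay below both control libraries. The aromatic amino acid carrier Slc16a10 fell from 172 and 178 CPM to 119 and 122 CPM (-0.55 ± 0.05).

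Other carriers of this class fell too. Slc1a5 (ASCT2, the main glutamine carrier of dividing cells) changed by -0.36 ± 0.05, the arginine and lysine carrier Slc7a1 by -0.36 ± 0.04, Slc38a10 by -0.36 ± 0.04 and the lysosomal histidine and peptide carrier Slc15a4 by -0.68 ± 0.08. Slc6a9 (GlyT1), the surface carrier that supplies glycine for haem, was at 65.4 and 67.3 CPM in controls and 52.1 and 48.7 CPM in mutants (-0.39 ± 0.07, adjusted p = 0.000124). Slc6a9 shares 27.8% of its exon bases with Ccdc24 on the opposite strand, which had no counts. The scarce Slc7a4, a relative of the arginine carriers, had the steepest fall of any member, from 1.88 and 2.02 CPM to 0.34 and 0.254 CPM (-2.64 ± 0.36, adjusted p = 6.95e-06). It had fewer than 20 counts over both mutants and became a member through the control libraries, so this fall supports nothing.

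The carriers of small neutral amino acids Slc38a1 (SNAT1, -0.09 ± 0.05), Slc38a2 (SNAT2, -0.02 ± 0.06) and Slc1a4 (ASCT1, -0.06 ± 0.07) did not pass. Slc38a2 was at 159 and 174 CPM in controls and 157 and 170 CPM in mutants, so its groups overlapped. The sign of all 3 turned with library totals alone (0.04, 0.11 and 0.08), and Slc38a1 passed without control replicate 1 (adjusted p = 0.0283) and with no count filter (0.0134).

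The partners of Slc3a2 did not move in 1 direction. The heavy chain itself was at 319 and 294 CPM in controls and 270 and 282 CPM in mutants, a small fall (-0.15 ± 0.05, adjusted p = 0.0135) that was lost with library totals alone (adjusted p = 0.797), upper quartile scaling (0.199), without control replicate 1 (0.119) and without mutant replicate 1 (0.146). Its most counted light chain, Slc7a5, fell as above. Its 4 other light chains among the members rose. Slc7a6, which exchanges arginine and lysine for neutral amino acids, was at 79.1 and 80.6 CPM in controls and 131 and 130.4 CPM in mutants (0.71 ± 0.05, adjusted p = 4.88e-09). Slc7a7, its close relative in macrophages and epithelia, changed by 0.60 ± 0.14.

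Slc7a11 (xCT), which takes up cystine in exchange for glutamate and so feeds glutathione synthesis, was at 0.508 and 0.734 CPM in controls and 2.64 and 2.99 CPM in mutants (2.17 ± 0.29, adjusted p = 5.18e-06). Slc7a8 (LAT2) was at 0.782 and 0.642 CPM in controls and 2.64 and 2.29 CPM in mutants (1.79 ± 0.28, adjusted p = 3.06e-05). Both stayed scarce in the mutant beside Slc7a5. Per kilobase of exon, the level of Slc7a6 was 0.118 and 0.115 of that of Slc7a5 in controls and 0.247 and 0.251 in mutants.

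**Figure D3:**
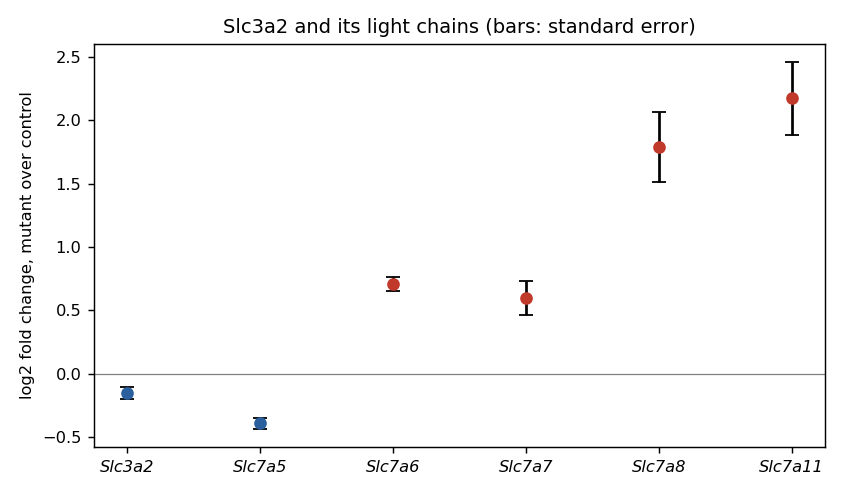
Log2 fold change of mutant over control, with its standard error as bars, of the heavy chain gene Slc3a2 and of the 5 light chain genes among the members. Slc3a2 and Slc7a5 lie below 0 (blue, called lower) and Slc7a6, Slc7a7, Slc7a8 and Slc7a11 above 0 (red, called higher).

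Other amino acid carriers that rose were the glutamate carrier Slc1a3, from 8.45 and 8.39 CPM to 23.8 and 23.5 CPM (1.49 ± 0.10, adjusted p = 1.29e-09), and the LAT-type carrier Slc43a2 (0.85 ± 0.11), a paralog of the falling Slc43a1. Slc36a4, a carrier of proline and tryptophan, changed by 1.35 ± 0.21 and Slc38a6 by 0.96 ± 0.23; Slc38a6 did not pass with DESeq2 (adjusted p = 0.0613).

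Of 23 ion carriers, 9 were higher, 7 were lower and 7 did not pass, with a median of 0.18; with library totals alone 12 were higher and 4 lower. The largest fall was that of Slc26a1 (ENSMUSG00000046959), an exchanger of sulphate, oxalate and bicarbonate. It was at 105 and 104 CPM in controls and 28.9 and 27.4 CPM in mutants, 3.7-fold lower (-1.89 ± 0.07, adjusted p = 3.73e-13). Per kilobase of exon it ranked 19 among the carriers in controls and 52 in mutants. Slc26a1 shares 3.48% of its exon bases with Idua on the opposite strand, whose control counts were 91 and 90, and which did not pass (0.36). Among the relatives of Slc26a1, the sulphate carrier Slc26a2 was at 39.8 and 38 CPM in controls and 57.4 and 55 CPM in mutants (0.53 ± 0.07). The scarce Slc26a11 changed by 2.08 ± 0.31. Slc26a10 (1.47 ± 0.40) had few control counts and was not called by DESeq2 (adjusted p = 0.140). It shares 17.8% of its exon bases with B4galnt1 on the opposite strand, which had 1297 and 1028 control counts and did not pass (-0.03). Slc26a6 did not pass (-0.14 ± 0.17).

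Carriers that set cell volume were divided. The potassium-chloride cotransporter Slc12a4 (KCC1) fell from 84.6 and 82.9 CPM to 60.8 and 61.7 CPM (-0.45 ± 0.06), and Slc12a7 (KCC4) changed by -0.41 ± 0.14. Slc12a2 (NKCC1), which brings sodium, potassium and chloride in, rose from 23.7 and 22.7 CPM to 31.5 and 34.5 CPM (0.50 ± 0.08, adjusted p = 7.16e-05). Slc12a9 (0.77 ± 0.16) rose as well. The call of Slc12a7 was lost with DESeq2 (adjusted p = 0.116), with library totals alone (0.0898), and when control replicate 1 (0.109) or mutant replicate 2 (0.116) was left out.

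The phosphate carriers Slc20a1 (-0.22 ± 0.04, adjusted p = 0.100 with library totals alone) and Slc20a2 (-0.62 ± 0.08) fell, while Xpr1, the phosphate exporter outside the Slc names, rose (0.45 ± 0.06). Slc24a6, the sodium-calcium exchanger of mitochondria, rose by 0.49 ± 0.15, and lost the call with DESeq2 (adjusted p = 0.163) and without mutant replicate 1 (0.0909). The bicarbonate carrier Slc4a7 was at 25.8 and 30.7 CPM in controls and 32 and 32.1 CPM in mutants (0.19 ± 0.09, adjusted p = 0.0915); it passed with library totals alone (0.0053), upper quartile scaling (0.0212) and without control replicate 2 (0.0194).

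Nucleoside carriers held the member with the highest level per kilobase of exon in the controls, Slc29a1 (ENT1, ENSMUSG00000023942). It moves nucleosides down their gradient in both directions and is the main nucleoside carrier of red cells. Its level was 759.6 and 755 CPM in controls and 465 and 439 CPM in mutants (-0.74 ± 0.04, adjusted p = 2.39e-10). Both mutants were below both controls, and its rank per kilobase went from 1 to 2, behind Slc7a5. Its relative Slc29a2 (ENT2) was at 17.3 and 15 CPM in controls and 9.9 and 10.2 CPM in mutants (-0.69 ± 0.11, adjusted p = 4.83e-05). The third, Slc29a3, of lysosomes, had -0.13 ± 0.16 and did not pass. The purine base carrier Slc43a3 was at 297 and 301 CPM in controls and 284 and 272 CPM in mutants (-0.10 ± 0.04, adjusted p = 0.0583). It passed with no count filter (0.00793), and its sign turned with library totals alone (0.03). The vesicular nucleotide carrier Slc17a9 was the only one of the 5 that rose, from 1.72 and 1.28 CPM to 4.69 and 5.85 CPM (1.77 ± 0.21).

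Among 26 metal carriers 14 did not pass, 6 were higher and 6 were lower, with a median of 0.01. The called share was 46.2%, against 57.5% of all genes. Without mutant replicate 1 the counts were 3 higher and 3 lower, DESeq2 called 2 higher, and upper quartile scaling and library totals alone left 3 and 2 lower. Slc39a8 (ZIP8), which imports zinc, manganese and iron and had the highest counts of the class, was at 479 and 480 CPM in controls and 465 and 482 CPM in mutants (-0.02 ± 0.04, adjusted p = 0.734). Its groups overlapped, and its sign turned with library totals alone (0.12, adjusted p = 0.0203). The magnesium carrier Slc41a3 (-0.06 ± 0.05), the zinc exporter Slc30a1 (0.01 ± 0.08) and the haem carrier Slc48a1 (0.04 ± 0.10) did not pass either. The iron exporter ferroportin, Slc40a1, fell slightly, from 141 and 150 CPM to 122 and 120.1 CPM (-0.26 ± 0.05, adjusted p = 0.00038; 0.0526 with library totals alone).

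The 2 copper carriers differed in direction. Slc31a1 (CTR1), the high-affinity copper importer, was at 139 and 145 CPM in controls and 126 and 129 CPM in mutants (-0.16 ± 0.05, adjusted p = 0.0106; 0.152 with upper quartile scaling, 0.676 with library totals alone and 0.103 without mutant replicate 1). Slc31a2 (CTR2), a copper carrier of endosomes and lysosomes, rose from 1.49 and 1.93 CPM to 5.48 and 6.36 CPM (1.79 ± 0.20, adjusted p = 7.5e-07). Slc31a2 remained the scarcer of the pair, at 0.022 and 0.028 of Slc31a1 per kilobase of exon in controls and 0.092 and 0.104 in mutants. Among zinc carriers, Slc39a3 (-0.65 ± 0.08), Slc30a6 (-0.42 ± 0.08) and Slc39a11 (-0.22 ± 0.08) fell, and Slc39a4 (0.94 ± 0.21), Slc39a6 (0.37 ± 0.13), Slc30a7 (0.29 ± 0.08) and Slc30a4 (0.98 ± 0.38) rose. Of these 7 calls, those of Slc39a3 and Slc30a6 held under every alternative. With DESeq2 the adjusted p was 0.0510 for Slc39a11, 0.0513 for Slc39a4, 0.182 for Slc39a6 and 0.320 for Slc30a4, and without mutant replicate 1 it was 0.106 for Slc30a7. Slc39a11 also lost its call with library totals alone (0.340) and upper quartile scaling (0.104). Single libraries ended the calls of Slc39a11 (0.0844 without control replicate 1, 0.0808 and 0.0643 without mutant replicates 1 and 2), of Slc39a6 (0.305, 0.0568 and 0.105 in that order) and of Slc30a4 (0.274 and 0.0589 without control replicates 1 and 2, 0.181 without mutant replicate 2). The manganese exporter Slc30a10 was barely past the threshold (-0.13 ± 0.05, adjusted p = 0.0481), and its sign turned with library totals alone. Slc11a1, the metal carrier of macrophage phagosomes, rested on few counts, 10 and 5 in the controls against 24 and 9 in the mutants, (1.28 ± 0.46, adjusted p = 0.0242), and lost its call when mutant replicate 1 (0.329) or control replicate 2 (0.183) was left out. The metallothionein genes Mt1 (0.13 ± 0.05) and Mt2 (0.79 ± 0.05), which bind zinc and copper and were not members, rose.

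The 2 lactate carriers changed in opposite directions and traded places. Slc16a1 (MCT1, ENSMUSG00000032902), which carries lactate and pyruvate in either direction, was at 454 and 429 CPM in controls and 325 and 308 CPM in mutants (-0.48 ± 0.05, adjusted p = 1.41e-07). Slc16a3 (MCT4), typical of cells that export lactate, was at 370.0 and 362 CPM in controls and 462 and 448 CPM in mutants (0.31 ± 0.04, adjusted p = 7.92e-06). Per kilobase of exon, Slc16a3 stood at 0.678 and 0.702 of Slc16a1 in the controls and at 1.18 and 1.21 in the mutants. This ratio is taken within each library and does not depend on scaling. The accompanying protein Bsg fell from 1216 ± 5.81 to 909 ± 14.6 CPM (SD, n = 2; -0.42 ± 0.04), while Emb rose from 1.61 ± 0.0613 to 34.6 ± 0.187 CPM (4.42 ± 0.12, adjusted p = 1.91e-14). Slc16a7 (MCT2), the carrier known to pair with Emb, was scarce, with 15 and 8 control counts against 21 and 15 mutant counts, and did not pass (0.81 ± 0.40). Of the 9 carboxylate carriers, 1 rose, 3 fell (Slc16a6 and Slc16a13 beside Slc16a1) and 5 did not pass. Slc16a13 lost its call with library totals alone (adjusted p = 0.110), with DESeq2 (0.0773) and without mutant replicate 2 (0.0589). Slc16a6 shares 21.5% of its exon bases with Amz2 on the opposite strand, which also fell (-0.23).

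**Figure D4:**
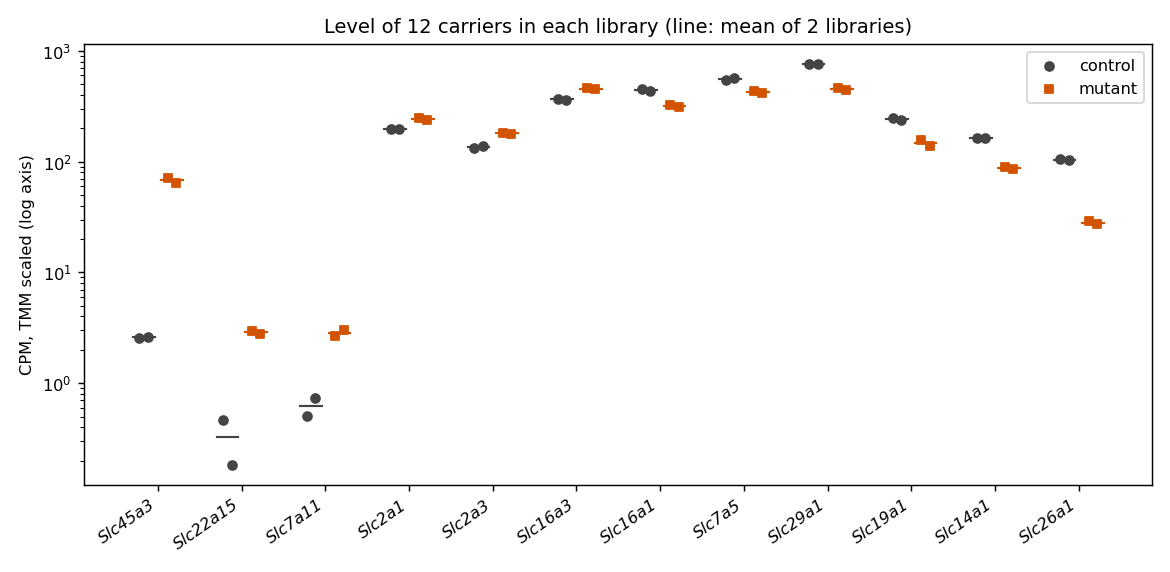
Level in each library (CPM on a log axis) of 12 carriers, with dark grey circles for the 2 control libraries, orange squares for the 2 mutant libraries and a line for each mean. Slc45a3 is at 2.58 and 2.61 CPM in controls and 71.6 and 64.1 CPM in mutants, and Slc16a1 and Slc16a3 exchange their order of counts between the groups.

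Of 11 carriers of vitamins, choline and related cofactors, 4 were higher, 2 were lower and 5 did not pass. Slc19a1, the reduced folate carrier, was at 247 and 238 CPM in controls and 155 and 139 CPM in mutants (-0.72 ± 0.05, adjusted p = 6.2e-09). Both mutant libraries lay well below both controls. The other folate carrier, Slc46a1, was scarce in both groups and did not pass (-0.23 ± 0.28). Its relative in the Slc19 family, the thiamine carrier Slc19a2, rose from 40.8 and 41.4 CPM to 51.6 and 55.2 CPM (0.38 ± 0.07). The ascorbate carrier Slc23a2 (0.62 ± 0.10), the choline carrier-like Slc44a2 (0.38 ± 0.07) and the scarce Slc44a4 (1.82 ± 0.37) rose, and Slc44a1 (-0.40 ± 0.09), which carries choline, fell.

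Among 24 carriers of other organic substances, 6 were higher, 4 were lower, 13 did not pass and Slc6a3 could not be tested. Slc14a1 (ENSMUSG00000059336), the urea carrier that bears the Kidd blood group in people, was at 163 and 164 CPM in controls and 89 and 85.1 CPM in mutants (-0.91 ± 0.05, adjusted p = 1.72e-10). It was the largest fall in this class. Slc27a4 (a fatty acid carrier, -0.50 ± 0.10), Slc22a4 (the ergothioneine carrier, -0.30 ± 0.08, adjusted p = 0.0938 with library totals alone) and Slc22a23 (-0.28 ± 0.05) also fell. The rises were in scarce genes. Slc22a15, Slc18a1 and Slc6a4 had fewer than 20 counts over both controls and became members through the mutant libraries, so their rises support nothing. Slc22a15 was at 0.469 and 0.183 CPM in controls and 2.95 and 2.8 CPM in mutants (3.08 ± 0.34, adjusted p = 6.85e-07), and without control replicate 1 the change was 3.93. Slc22a18 (2.28 ± 0.27), an imprinted gene, the urate carrier Slc2a9 (1.30 ± 0.20) and the monoamine carriers Slc18a2 (0.65 ± 0.16), Slc18a1 (1.28 ± 0.46) and Slc6a4 (1.36 ± 0.42) were the others. The calls of these monoamine carriers were lost with DESeq2 (adjusted p = 0.0931, 0.333 and 0.220) and without mutant replicate 1 (0.0637, 0.449 and 0.262). Without control replicate 1 Slc18a1 (0.190) and Slc6a4 (0.122) lost theirs, and without control replicate 2 Slc18a1 (0.0553). Of the 5 nucleotide sugar carriers, Slc35a5 rose (0.68 ± 0.11), Slc35a4 fell (-0.49 ± 0.08) and 3 did not pass.

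Rises were mostly in scarce members and falls mostly in members with many counts, as they were over all genes. Of 68 carriers with a mean of 20 CPM or more over the 4 libraries, 11 rose and 33 fell (16.2% and 48.5%; 21.8% and 44.8% of all 7066 genes at that level), with a median of -0.14 against -0.11 for those genes. Of 82 carriers under 20 CPM, 35 rose and 8 fell (42.7% and 9.76%; 35.9% and 10.98% of all 6074 such genes), with a median of 0.37 against 0.26. The limit of 20 CPM was chosen after the data were seen. Because the count minimum was summed over both groups, 7 carriers (Slc26a10, Slc9a5, Slc11a1, Slc18a1, Slc22a15, Slc6a4 and Slc37a2) with fewer than 20 counts over both controls became members through the mutant libraries, and their rises support nothing. Likewise 3 carriers (Slc38a3, Slc7a4 and Slc6a3) had fewer than 20 counts over both mutants, and the fall of Slc7a4 supports nothing either. Without such carriers, and such genes, 28 of 73 carriers under 20 CPM rose and 7 fell (38.4% and 9.59%), against 32.6% and 11.8% of 5182 genes.

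**Figure D5:**
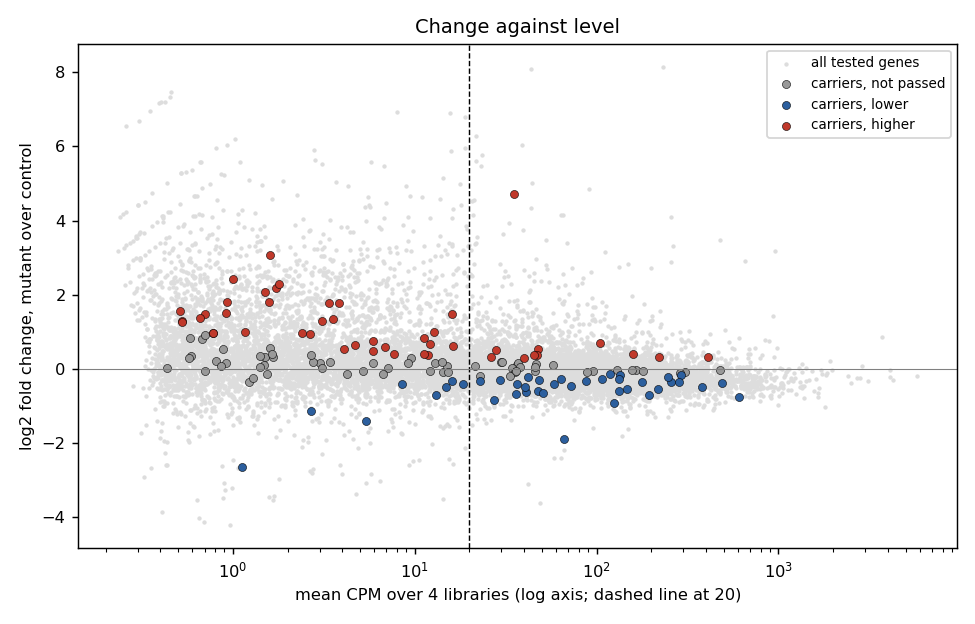
Log2 fold change of mutant over control against mean CPM over the 4 libraries (log axis) for all 13140 tested genes in light grey and the carriers in red (called higher), blue (called lower) and dark grey (not passed). Left of the dashed line at 20 CPM 35 carriers rose and 8 fell; right of it 11 rose and 33 fell.

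Markers of other cell types changed between the same groups, and their part in the rises of scarce carriers was not tested. Over all 13140 tested genes 28.3% rose and 29.2% fell. Of 18 hepatoblast genes 16 were tested, 11 rose and none fell, with a summed level of 1081 and 1068 CPM in controls and 1452 and 1454 CPM in mutants. Of 12 megakaryocyte and platelet genes 10 rose and 1 fell, with sums of 119 and 116 CPM in controls and 329.9 and 319 CPM in mutants. Of 15 macrophage genes 13 were tested, 5 rose and 2 fell (Marco and Cd5l), with sums of 41.2 and 38.2 CPM against 132 and 127 CPM, of which Hmox1 was 15.6 and 12.5 CPM against 94.3 and 90.2 CPM; Cd163 had no counts in any library, and C1qa, C1qb and C1qc did not pass. Of 12 granulocyte and monocyte genes 11 were tested, 6 rose and 1 fell, with sums of 58.3 and 62.4 CPM against 143 and 148 CPM. Of 10 mesenchymal genes 8 rose and none fell, with sums of 8.37 and 8.35 CPM against 27.02 and 24.7 CPM. Of 10 endothelial genes 5 rose (Pecam1, Tie1, Kdr, Esam and Tek) and 1 fell (Eng). Their sums were 193.4 and 190.3 CPM against 193 and 191.6 CPM. Most of these sums was Egfl7, which did not pass, with means of 150 CPM in controls and 140 CPM in mutants. Of 8 mast cell and basophil genes only Hdc and Cpa3 could be tested and both rose, with sums of 2.39 and 2.80 CPM against 11.3 and 11.5 CPM.

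Genes that work beside the carriers were followed in a list of 25, of which 24 were found and tested. Of these 7 rose, 10 fell and 7 did not pass, with a median of -0.07. The called share was 70.8%, against 57.5% of all genes. For glucose, the hexokinase gene Hk1 fell (-0.38 ± 0.04) and Hk2 rose (0.83 ± 0.08), Gpi1 rose (0.34 ± 0.05), Hif1a, an activator of glucose carrier genes, rose (0.61 ± 0.06), and Txnip, which removes GLUT1 from the surface, did not pass (-0.05 ± 0.08). Its relative Arrdc4 fell (-1.43 ± 0.14). For ions and water, the calcium pump Atp2b4 (-0.48 ± 0.04), the potassium channel Kcnn4 (-0.80 ± 0.05), the stretch channel Fam38a (Piezo1, -0.64 ± 0.04) and the water channel Aqp1 (-0.73 ± 0.04) fell. Atp2b1, of the same family as Atp2b4, did not pass (-0.03 ± 0.08). The kinase genes Wnk1 and Oxsr1, which regulate the cation-chloride carriers, did not pass (-0.09 and -0.02). Stk39, a scarce gene of the same list, was called lower (-0.86 ± 0.35, adjusted p = 0.0444). Its mean level was 1.08 CPM for the control group and 0.589 CPM for the mutant group. Atf4, a factor that activates amino acid carrier genes, did not pass (-0.03 ± 0.04).

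The 4 names that are not carriers included 1 large change. Slc9a3r1, which encodes the scaffold NHERF1 that anchors membrane proteins to ezrin, was at 57.2 and 55.9 CPM in controls and 142 and 135 CPM in mutants (1.29 ± 0.06, adjusted p = 4.34e-12). Slc9a3r2 had 0.63 ± 0.24 (adjusted p = 0.0334), a call lost with DESeq2 (0.335), with no count filter (0.0542), without control replicate 1 (0.284) and without mutant replicate 1 (0.121) or 2 (0.0718). Slc4a1ap and Slc7a6os did not pass. At the edge of the count minimum, Slc38a3 and Slc6a3 had 40 counts and were members, and Slc44a3 with 37 and Slc23a1 with 34 were not.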

How the data were processed

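The authors deposited raw counts per gene and library (2 control and 2 mutant) together with their comparison of the groups, as log2 fold changes, p-values and FDR; per the submitters' processing notes the tools were FastQC, Bowtie and edgeR and the build mm9. Versions, read length, strand and the treatment of reads that map to several places are not given in the sources used here. The columns named WT1 and WT2 were taken as the control libraries of the same number. After 12 rows without values were dropped, 35927 genes remained. Library totals were 26892375 and 22817080 counts in controls and 25186819 and 15053229 counts in mutants. Genes passing filterByExpr (13140) were fitted in edgeR 4.0.16 (R 4.3.3) with TMM scaling and the robust quasi-likelihood test, two-sided, with Benjamini-Hochberg adjustment over all 13140 p-values. The authors' deposited p-values and log2 values were used only for the sentence that names their table.

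Members, classes and lists were chosen with earlier results of these data known. Within each class the members named were up to 5 rises and 5 falls, the steepest of the called members whose groups did not overlap and whose higher group had at least 2 CPM, the 2 with the highest mean CPM, and a written list of well-known carriers; others were named to complete small counts or families, after their values were seen. A few genes that the rule or lists name are not reported here. Levels per kilobase used the exon union of GENCODE M21 (GRCm38, not the authors' build). Promoter sequences are from RefSeq (GRCm38.p6).

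On simulated counts for 12917 genes, 200 of them changed, the test called 46 of 67 genes set to a 1.5-fold difference, 58 of 66 set to 2-fold and 66 of 66 set to 4-fold. No sign was wrong, and 9 unchanged genes were called. The alternatives were RLE, upper quartile and no scaling factors, no count filter and a CPM filter, DESeq2 1.42.0, limma-voom (limma 3.58.1), the replicate number as a block, and leaving out each library.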

Additional observations from a re-analysis of the deposited data

How the results depend on the processing

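Of 89 called members, 57 had the same call under all 12 alternatives that tested them (28 higher and 29 lower), and none was called in the opposite direction. The number of members called higher was 29 with DESeq2 against 48, and that of all genes was 2502 against 3723. Of the calls by DESeq2, 43.9% were higher for the members and 43.2% over all genes. The members it called higher included 4 sugar, 7 amino acid, 5 ion and 2 metal carriers. The cause of the lower number was not tested. With library totals alone 4 ion and 2 metal carriers were called lower, and with upper quartile scaling 3 metal carriers. Leaving out each library in turn gave 35 to 44 members higher and 37 to 41 lower, and 3 to 4 metal carriers higher and 3 to 5 lower, the lowest of both without mutant replicate 1.

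Controls and mutants share only a replicate number, and the correlation of same-numbered deviations was 0.119 over 2 pairs. With that number as a replicate block, 53 members were higher and 46 lower, as were 4135 and 4267 of all genes. No call of a named member was lost, while Slc38a1 (adjusted p = 0.0204), Slc43a3 (0.0109), Slc4a7 (0.0182) and Slc7a6os (0.0395) passed.

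Values near 0 changed sign. With library totals alone the log2 fold change was 0.080 for Slc1a4, 0.011 for Slc30a10, 0.043 for Slc38a1, 0.11 for Slc38a2, 0.12 for Slc39a8 (adjusted p = 0.0203), 0.080 for Slc41a3, 0.034 for Slc43a3 and 0.0045 for Slc7a6os. With upper quartile scaling it was 0.020 for Slc1a4, 0.052 for Slc38a2, 0.058 for Slc39a8 and 0.020 for Slc41a3. Slc30a1 had -0.026 with no count filter and -0.012 with DESeq2, and Slc39a8 had 0.0032 with the CPM filter. Leaving out each library gave -0.040 to 0.049 for Slc30a1, -0.096 to 0.036 for Slc38a2, -0.037 to 0.0081 for Slc39a8 and -0.11 to 0.19 for Slc48a1. Changing the scaling factors shifted all genes together. Their median was 0.15 with library totals alone and 0.09 with upper quartile scaling, against 0.01 with TMM. What changed the signs under the other settings was not tested.

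Carriers with few counts have wide errors: the 7 with fewer than 20 control counts rest on a handful of reads, and Slc22a15 was the only called named member whose fold moved by over 1.5 times, to 15.2-fold without control replicate 1. With 2 pools a group, differences between embryos were not measured.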
